A study of Mus musculus with 2 samples.

Results

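Intrinsic apoptosis is the death programme that a cell starts from its own mitochondria, and 9 of its core genes around *Apaf1* were compared here between sorted macrophage populations of the injured mouse heart. The genes were *Apaf1*, *Casp9*, *Bax*, *Bak1*, *Bcl2*, *Bcl2l1*, *Mcl1*, *Bcl2l11* and *Xiap*, and each was taken from the probe set that the array's annotation assigns to that symbol alone. Of these 9 genes, 8 had such a probe set, 1 each, among 19505 named genes. *Bax* had no probe set under its symbol and was not analysed here. Wild-type male C57BL/6 mice aged 10 weeks underwent ischemia–reperfusion (IR), in which a coronary artery is tied and then released. CD45+CD11b+ heart cells were then sorted into MHCII+ macrophages and MerTK- macrophages. Each population was measured on 1 array of cells pooled from several hearts, so neither a spread between replicates nor a p-value could be had. The time from IR to the sort, and whether MHCII+ cells were also gated on MerTK, are not given in the sources used here.

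In this pathway, BH3-only proteins such as BIM (gene *Bcl2l11*) respond to damage or lost growth factors. They bind survival proteins of the BCL-2 family and free BAX and BAK to open pores in the outer mitochondrial membrane. Cytochrome c then leaks out and joins APAF1, the scaffold of the apoptosome, which recruits and activates the initiator caspase-9. XIAP blocks caspase-9 and the executioner caspases downstream of that step. Macrophages that reside in the heart are lost after infarction while monocytes enter, so the balance of death and survival genes in each population is of interest. The study asked how the transcription factor ATF3 acts on the survival of cardiac macrophages, with *Apaf1* among the genes it examined.

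Because ATF3 and *Apaf1* were part of the study's question, the 250 bases upstream of the *Apaf1* start are shown beside those of the members whose windows matched a letter string of the ATF family. The searched strings, on both strands, were the full cyclic AMP response element TGACGTCA, the AP-1 site TGACTCA and the short site TGACG, which the full element contains. Sequences are from RefSeq, build GRCm38.p6, and run 5′ to 3′ on the strand of the gene. Capitals mark a match, and a sequence without capitals had none.

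Apaf1, chr10:91082744-91082993, minus strand: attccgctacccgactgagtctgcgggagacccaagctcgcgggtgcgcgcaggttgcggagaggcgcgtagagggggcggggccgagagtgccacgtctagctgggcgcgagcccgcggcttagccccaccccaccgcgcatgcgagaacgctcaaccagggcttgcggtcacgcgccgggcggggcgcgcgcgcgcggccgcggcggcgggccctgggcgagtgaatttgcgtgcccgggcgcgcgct

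Xiap, chrX:42068148-42068397, plus strand: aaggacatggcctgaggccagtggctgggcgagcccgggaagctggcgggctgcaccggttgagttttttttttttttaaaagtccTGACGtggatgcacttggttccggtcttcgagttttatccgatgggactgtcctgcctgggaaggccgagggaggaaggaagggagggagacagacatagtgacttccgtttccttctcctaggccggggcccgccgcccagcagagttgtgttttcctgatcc

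Bcl2, chr1:106714291-106714540, minus strand: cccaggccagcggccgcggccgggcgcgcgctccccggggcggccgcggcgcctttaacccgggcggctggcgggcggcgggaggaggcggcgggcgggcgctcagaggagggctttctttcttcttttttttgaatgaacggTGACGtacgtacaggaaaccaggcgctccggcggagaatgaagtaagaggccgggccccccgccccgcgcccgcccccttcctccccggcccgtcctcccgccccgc

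RefSeq lists 14 starts for the 9 genes, and neither TGACGTCA nor TGACTCA occurred upstream of any of them. Over all 32851 mouse starts in the same table, 1.55% and 4.46% of windows of that length held these strings. The short site occurred upstream of 2 of the 14 starts, 1 of 3 for *Xiap* and the single one for *Bcl2*, against 17.8% of all windows. In the *Xiap* window the match began 164 bases before the start, and in the *Bcl2* window 107 bases before it. The *Apaf1* window had a G and C content of 75.6%. These are matches of letters in one short window and do not say where a factor binds.

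All 8 measured genes were less than 2.5-fold apart between the populations, and *Xiap* alone was at least 2-fold apart, the fold set in the study's methods. Values are deposited log2 intensities, and a difference is the MHCII+ value minus the MerTK- value, so that 1 on this scale is 2-fold. As deposited, *Xiap*, *Bcl2l11*, *Mcl1*, *Apaf1* and *Bcl2l1* had the higher value in MerTK- macrophages and *Bcl2*, *Casp9* and *Bak1* in MHCII+ macrophages, directions that held under all 5 scalings of the arrays tried for *Xiap*, *Bcl2* and *Casp9* (for *Casp9* on a value below the floor) and turned under 1 for each of the others. *Xiap* was thus 1 of 8 measured members (12.5%) at least 2-fold apart. Among 10517 genes above the floor described next, 20.3% were at least 2-fold apart, 13.4% with the higher value in MHCII+ and 6.88% in MerTK- macrophages. With 8 genes, 1 call is close to that background and is no result about the group. The median difference of the members was -0.19, and that of all genes above the floor was 0.15.

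**Figure D1:**
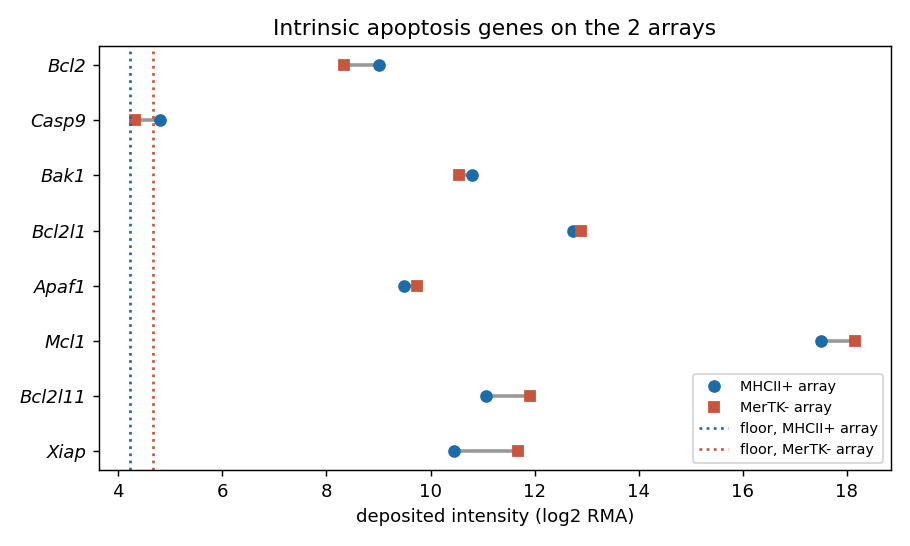
Deposited log2 RMA intensity (horizontal axis) of the 8 measured genes on the MHCII+ array (circles) and the MerTK- array (squares), 1 array each, with the floor of each array as a dotted line. Xiap has the widest gap, from 10.44 to 11.69, and Casp9 is the only gene at the floors.

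A floor was set on each array at the 95th percentile of 1448 sensory receptor genes (olfactory, vomeronasal and taste), chosen as genes mostly silent outside sensory cells. It lay at 4.23 on the MHCII+ array and at 4.68 on the MerTK- array. To pass, a gene needed its higher value to clear the floor of the array it came from. All 8 measured members passed, and 7 of them were above the floor on both arrays, with *Casp9* as the exception.

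The apoptosome genes differed little. *Apaf1* measured 9.49 on the MHCII+ and 9.74 on the MerTK- array, a difference of -0.24, or 1.18-fold. A lower difference was held by 29.1% of all genes above the floor, which puts *Apaf1* inside the bulk of the distribution. *Casp9*, which encodes the caspase that APAF1 activates, had values of 4.80 and 4.32. The MerTK- value lay below its floor, so on the deposited scale the excess in MHCII+ macrophages was bounded only as at least 1.09-fold. Centring on genes above the floor lowers differences by 0.15, more than this bound of 0.12 (log2), and then no direction is bounded. Both *Casp9* values lay close to the floors. *Cycs*, which encodes cytochrome c, was bright on both arrays at 15.65 and 15.53.

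*Xiap* encodes the inhibitor of apoptosis protein that binds caspase-9 directly. Its value was 10.44 in MHCII+ and 11.69 in MerTK- macrophages, which is 2.37-fold higher in MerTK- macrophages. Only 3.77% of all genes above the floor had a lower difference. Of its relatives with BIR domains, *Birc2* (8.18 and 8.72) and *Birc3* (14.85 and 15.63) also had the higher value in MerTK- macrophages, by 1.46-fold and 1.72-fold, and *Birc6* (10.18 and 10.02) in MHCII+ macrophages, by 1.12-fold. The list of 5 inhibitor genes had 4 above the floor, of which *Xiap* was the only one at least 2-fold apart.

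The survival genes of the BCL-2 family did not share a direction. *Bcl2*, the founding member, measured 9.01 on the MHCII+ and 8.33 on the MerTK- array and was 1.60-fold higher in MHCII+ macrophages. *Mcl1*, which encodes a short-lived survival protein that neutrophils are known to need, went the other way, with 17.50 and 18.15, or 1.56-fold higher in MerTK- macrophages. *Bcl2l1*, which encodes BCL-XL, had 12.74 and 12.88 and was 1.10-fold apart. The *Bcl2* and *Mcl1* differences lay 1.32 apart on the log2 scale. On the array the ratio of *Bcl2* to *Mcl1* intensity was therefore 2.49-fold higher in MHCII+ than in MerTK- macrophages. Centring an array cannot move this ratio, but quantile normalization brought it to 1.87-fold. *Mcl1* lay near the top of the deposited range, whose highest transcript values were 19.78 on the MHCII+ and 19.44 on the MerTK- array, and the scale of values this high is not explained in the sources used here, nor is whether such probes were saturated.

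The genes that open mitochondria were less than 2-fold apart. *Bcl2l11* measured 11.07 on the MHCII+ and 11.91 on the MerTK- array, 1.79-fold higher in MerTK- macrophages and the member closest to the 2-fold line without crossing it. A lower difference was held by 9.89% of all genes above the floor. *Bak1*, which encodes the pore protein BAK, had 10.79 and 10.55 and was 1.19-fold apart.

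**Figure D2:**
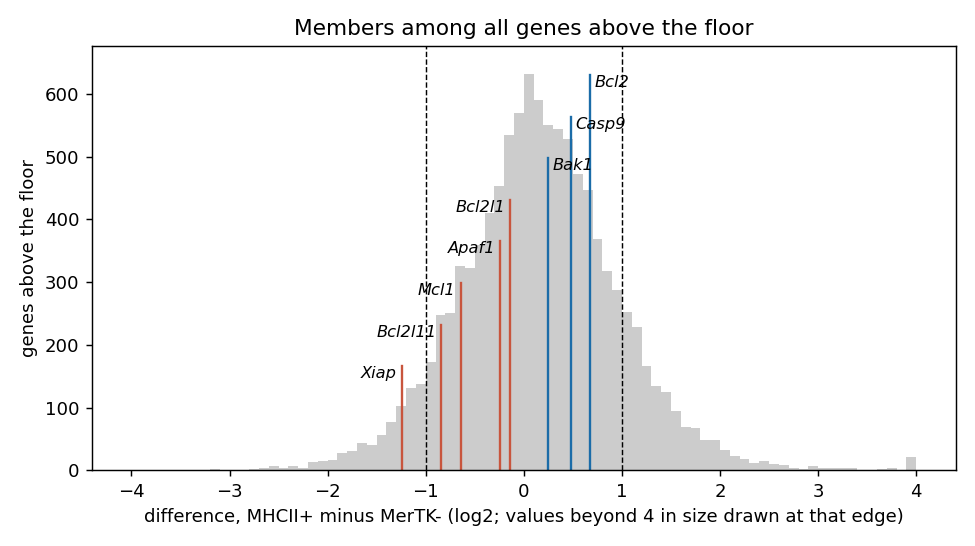
Number of genes above the floor (vertical axis) by difference between the arrays (horizontal axis, log2, MHCII+ minus MerTK-), with each member drawn as a line at its own difference and the 2-fold limits dashed. The height of a member's line only separates the labels. Members run from -1.25 (Xiap) to 0.67 (Bcl2), inside the range that holds the central 95% of all genes, -1.42 to 1.80.

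All 8 members lay inside the central 95% of the differences of all genes above the floor, which ran from -1.42 to 1.80. Of these, 4 also lay inside the central 50%, from -0.34 to 0.64. The death-promoting members with a value, *Apaf1*, *Casp9*, *Bak1* and *Bcl2l11*, had a median difference of 0.0022 (-0.058 with *Casp9* at the floor), and the survival members *Bcl2*, *Bcl2l1*, *Mcl1* and *Xiap* one of -0.39. The death-promoting median was thus 0.40 above the survival median (0.34 with *Casp9* at the floor), but each group of 4 genes held both directions, and their ranges overlapped (-0.84 to 0.25 with *Casp9* at the floor, and -1.25 to 0.67). Over the 21 pairs of members without *Casp9*, 7 pairs had differences at least 1 apart on the log2 scale. The widest gap was that between *Bcl2* and *Xiap*, 1.92, and the narrowest that between *Apaf1* and *Bcl2l1*, 0.098.

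Features for which no difference was sought also differed between the 2 arrays. Control probe sets are not replicates of the probe sets of genes, so their spread does not give the error of a member's difference. Of 5222 probe sets that the array names as negative controls, 30.4% were at least 2-fold apart, with a central 95% from -2.21 to 2.00. Of the 1324 probe sets named as positive controls, 24.7% were at least 2-fold apart. No floor was applied to these shares, and without a floor 12.6% of all genes were that far apart. Above the floor the shares were 38.0% of negative controls, 26.7% of positive controls and 20.3% of genes. For 23 genes with several probe sets above the floor, the differences given by probe sets of 1 gene lay a median of 0.48 apart. The differences of *Apaf1*, *Bak1* and *Bcl2l1* were smaller than that value, and *Casp9* has only a bound. The 95th percentile of the negative controls was 9.03 on the MHCII+ and 9.66 on the MerTK- array, and both *Bcl2* values and both *Casp9* values lay below it, while *Apaf1*, at 9.49 and 9.74, lay just above it.

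The wider pathway was followed through 52 genes in 9 lists by role, members included, of which 47 had a named probe set and 42 were above the floor. Of the 42, MHCII+ macrophages had the higher value by 2-fold or more for 3 (7.14%) and MerTK- macrophages for 5 (11.9%), and 34 were less than 2-fold apart. In both directions together this was 19.0%, near the 20.3% of all genes. *Trp53* is among the listed genes not analysed here.

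Of the 5 genes that favoured MerTK- macrophages by that fold, 3 were survival genes of the BCL-2 family. These were 3 of the 7 such genes above the floor, and 6.88% of all genes above the floor favoured MerTK- macrophages by that fold. None of the 5 genes stayed 2-fold apart when centred on hybridization controls, and all did under the other scalings. The 3 survival genes were *Bcl2a1a* (14.13 and 15.37, 2.37-fold), *Bcl2a1b* (14.88 and 16.19, 2.49-fold) and *Bcl2a1d* (13.54 and 14.55, 2.01-fold). These genes encode copies of the survival protein A1, and their probe sets may take up RNA of one another, so they may count as fewer than 3 results. *Bcl2l2* had 6.01 on both arrays, and *Bcl2l10* lay below the floor on both. Of 8 survival genes listed, 7 were above the floor, with a median difference of -0.64 and *Bcl2* as the only one higher in MHCII+ macrophages.

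None of the 8 BH3-only genes was at least 2-fold apart, and their differences ran from -0.84 to 0.47. *Bad*, which growth factor signals keep inactive, had 5.36 and 5.24, and *Bid*, which links the death receptors to mitochondria, 5.58 and 5.92. *Bok*, a relative of BAX and BAK, was near the floor at 4.41 and 4.15. The executioner gene *Casp6* had 9.05 and 9.27. Of the proteins that mitochondria release against inhibitors of apoptosis, *Diablo* (9.17 and 8.80) and *Htra2* (10.21 and 9.41) had the higher value in MHCII+ macrophages by 1.29-fold and 1.74-fold, and *Septin4* (4.92 and 5.71) in MerTK- macrophages by 1.73-fold. The list they came from also held released mitochondrial proteins without that role. Of its 4 genes above the floor, 3 were higher in MHCII+ and 1 in MerTK- macrophages.

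In the list of p53 regulators and mitochondrial channel proteins, MHCII+ macrophages had the higher value by 2-fold or more for 2 of the 6 genes that cleared the floor. They were *Vdac1*, a channel of the outer mitochondrial membrane (10.31 and 9.24, 2.09-fold), and *Ppif*, which encodes cyclophilin D of the permeability transition (6.74 and 5.71, 2.05-fold). Neither *Vdac1* nor *Ppif* stayed 2-fold apart after centring on genes above the floor or on housekeeping genes, or after quantile normalization. *Mdm2*, the ubiquitin ligase for p53, had 13.96 and 13.50. In the death receptor route, *Fadd*, the adaptor of those receptors, was 2.29-fold higher in MHCII+ macrophages (6.69 and 5.50), though not 2-fold apart when centred on housekeeping genes. *Tnfrsf1a*, a TNF receptor gene, was 2.41-fold higher in MerTK- macrophages (13.24 and 14.51), though not 2-fold apart when centred on hybridization controls. *Fas*, a death receptor gene, had 7.74 and 8.37, and *Casp8*, the initiator caspase of that route, 16.43 and 16.04.

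**Figure D3:**
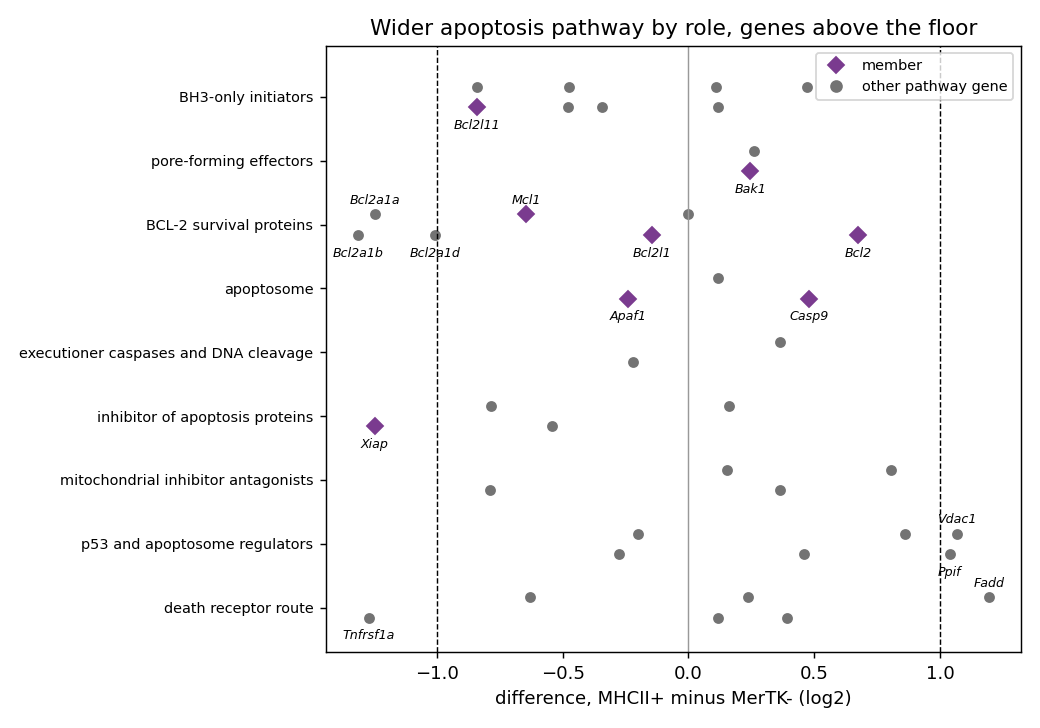
Difference between the arrays (horizontal axis, log2, MHCII+ minus MerTK-) of the 42 pathway genes above the floor, by role (vertical axis), with members as diamonds, other genes as circles and the 2-fold limits dashed. Points of a role are offset up and down only to keep them apart. The 8 labelled genes outside the dashed lines are 5 higher in MerTK- and 3 higher in MHCII+ macrophages.

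Markers of other cells moved between the arrays alongside these genes. Of 13 neutrophil markers with a value, 11 were above the floor and all 11 were at least 2-fold higher on the MerTK- array, with a summed intensity of 19.3 on the MHCII+ and 20.9 on the MerTK- array (log2 of the linear sum). *S100a8* and *S100a9* were bright on both arrays (17.21 and 18.96, 16.42 and 18.18), *Mpo* and *Camp* lay below the floor on both, and *Ly6g* had no named probe set. Neutrophils are known to express *Mcl1* and *Bcl2a1* genes. Of 10 natural killer cell markers, 8 were above the floor, 6 of them at least 2-fold higher on the MerTK- array and 1 on the MHCII+ array, and the summed intensity was 8.47 and 13.1. Of the latter list, *Ncr1* had 3.10 and 5.79 and *Gzma* 5.20 and 13.04. Among B cell markers, 5 had a value and 2 passed the floor, both by 2-fold or more higher on the MHCII+ array, with sums of 6.83 and 5.56. Of 9 T cell markers, 6 had a value and 2 were above the floor, neither of them 2-fold apart, with sums of 7.09 and 7.04. Cardiomyocyte (9 of 9), endothelial (6 of 6), fibroblast (3 of 4) and monocyte (6 of 8) markers that passed the floor were mostly higher on the MerTK- array, 6, 3, 2 and 1 of them by at least 2-fold. The part of these cells in the differences of *Mcl1*, *Xiap*, *Bcl2a1* genes and *Bcl2* was not tested. The sort gated on CD45 and CD11b, and some cardiomyocyte, endothelial and fibroblast markers were still above the floor on both arrays. Which cells besides macrophages passed the gate was not measured here. In sorted populations, fewer cells of a type and less RNA per cell cannot be told apart.

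The MHC class II genes and *Mertk* followed the labels. All 7 MHC class II genes with a value were at least 2-fold higher on the MHCII+ array, as the sort selected, and all 14 resident macrophage markers were higher there, 11 by at least 2-fold. *Mertk* itself had values of 8.77 and 5.97, so its probe set was above the floor on the MerTK- array too. *Ccr2*, a chemokine receptor of recruited monocytes, went against most of its list, with 16.15 and 15.18, or 1.95-fold higher on the MHCII+ array. Dendritic cell markers were also higher on the MHCII+ array for all 6 genes above the floor, 3 of them by at least 2-fold. Proliferation genes were at least 2-fold higher there for 4 of 7 above the floor, and stress and dissociation genes for 1 of 11, with 1 of 11 in the other direction.

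The direction of most members depended on how the arrays were scaled. The 4 hybridization controls, which are not mouse transcripts, had a median difference of -0.93, and 14 housekeeping genes one of 0.39. Centring on the former moved the median of all genes above the floor from 0.15 to 1.08, and on the latter to -0.24. Centred on the hybridization controls, *Apaf1* had a difference of 0.69 in place of -0.24. *Casp9*, *Bak1* and *Bcl2* then favoured MHCII+ macrophages by 2-fold or more and *Xiap*, at -0.31, was no longer 2-fold apart. Centred on housekeeping genes, *Mcl1* (-1.03), *Bcl2l11* (-1.23) and *Xiap* (-1.63) favoured MerTK- macrophages by that fold and *Apaf1* had -0.63. *Xiap* had the higher value in MerTK- macrophages, and *Bcl2* and *Casp9* in MHCII+ macrophages, under all 5 scalings (for *Casp9* on a value below the floor), whereas the other 5 members changed sign under 1 scaling each. *Bak1* did so when centred on housekeeping genes and the other 4 when centred on hybridization controls.

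**Figure D4:**
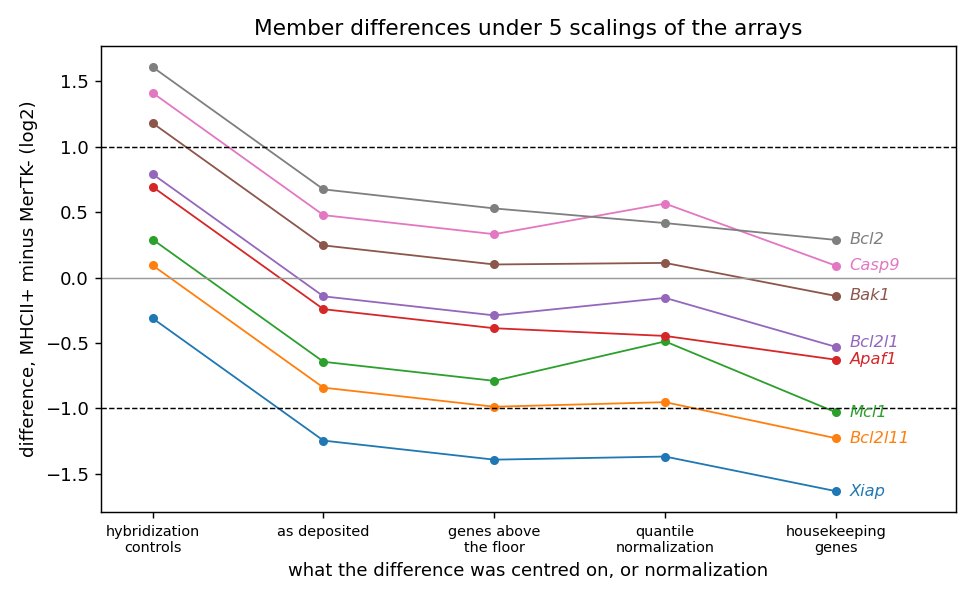
Difference of each member (vertical axis, log2, MHCII+ minus MerTK-) as deposited, after centring on 3 sets of features and after quantile normalization (horizontal axis), with 2-fold limits dashed. Lines join the values of 1 gene. Centring moves all members together, and Xiap stays lowest and below 0 in all 5, from -0.31 to -1.63.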

How the data were processed

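Total RNA of sorted cardiac macrophages was hybridized to mouse Clariom S arrays per the study's methods, although the series description names an older array. The deposited log2 values were made by the authors with Robust Multichip Analysis (RMA), default settings and global scaling, and the processing notes name Affymetrix Expression Console without a version. RMA is meant to equalize arrays. As deposited, the median difference was -0.027 over all genes and 0.15 over genes above the floor, which lay at unlike heights on the 2 arrays. After quantile normalization, with floors set anew, the median above the floor was 0.034. A shift of most genes in the cells cannot be told apart from a shift in array scale. Of 28846 probe sets, 22206 stand for transcripts and 19572 of these carry 1 symbol. For 55 genes with several, the probe set with the highest mean was taken, and no member was among them. Differences were computed over all genes with Python 3.11.15 and pandas 2.3.3, and a gene was called at a fold of 2 with its higher value above the floor. The step was tested on simulated data with little noise and with changes planted only in genes well above the floor. That checks the calculation and does not measure errors on these arrays. Alternatives were 3 centrings, quantile normalization, 2 other floors, the mean over probe sets, current symbols and a fold of 1.5. All 9 members were named. From the wider lists the text names each gene at least 2-fold apart and the first 2 others of a list, and from marker lists at most the first 3. *Mpo* and *Camp*, as the measured neutrophil markers below the floor, and *Birc6* and *Septin4*, which went against others of their lists, were named after their values were seen. The members and lists were chosen with earlier results of these data known. With 1 array per group the number of arrays limits the precision.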

Additional observations from a re-analysis of the deposited data

How the results depend on the processing

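As deposited, 1 member and 8 pathway genes were at least 2-fold apart. The number of members was 3 when centred on housekeeping genes, 3 when centred on hybridization controls and 4 at a fold of 1.5. Under these settings 22.0%, 55.6% and 44.3% of all genes above the floor were called. With so few members, these counts are no result about the group. Pathway genes numbered 21 of the 42 above the floor when centred on hybridization controls, all higher in MHCII+ macrophages. At a fold of 1.5 they numbered 17 of 42. Their split of 3 higher in MHCII+ and 5 in MerTK- macrophages became 1 and 5 when centred on genes above the floor and after quantile normalization, where *Fadd* alone was left in the first group, and 0 and 11 when centred on housekeeping genes. Of all genes called, MHCII+ macrophages held 66.0% as deposited, 50.9% when centred on genes above the floor, 54.5% after quantile normalization, 27.5% with housekeeping genes and 98.8% with hybridization controls. The members' median of -0.19 was -0.34, -0.58 and 0.74 after centring on genes above the floor, housekeeping genes and hybridization controls, -0.30 after quantile normalization, and -0.44 over the 6 members that passed the negative-control floor. The death-promoting median stood 0.40 above the survival median, 0.15 after quantile normalization and 0.34 with *Casp9* at the floor, an alternative chosen after seeing the data. The *Apaf1* difference turned to 0.69 with hybridization controls. Centring shifts all members alike by construction, and for the other changes the cause was not tested. Of 10517 genes above the floor, 2131 (20.3%) were called as deposited, 2318 (22.0%) with housekeeping genes and 5847 (55.6%) with hybridization controls. At a fold of 1.5 they numbered 4658 (44.3%). With the negative-control floor, 913 of the 3808 genes above it (24.0%) were called. For the other 7 members under 9 alternatives, 50 of 63 differences kept sign and side of the threshold. Part of this count was fixed in advance, since a change of floor or of probe set choice could not move a member's difference. *Bcl2* and *Casp9* were also counted as kept under the negative-control floor, which left them out. No paired analysis was possible because each population had 1 array, and no array could be left out. Each measured member had 1 probe set, so averaging over probe sets could not change it, and current symbols changed no member. *Casp9*, at the floor, is limited by signal over background. *Bcl2* lay 4.78 (MHCII+) and 3.66 (MerTK-) above the floors on the log2 scale, but below the negative-control percentile on both arrays.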
